A study of Homo sapiens with 8 samples.

Results

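A total of 816 accessible regions carried a peak in at least 3 of 4 H2A libraries and in none of 4 E92K libraries, out of 96872 regions found in all. They are called H2A-leaning regions here. They were chosen by the contrast itself: peaks of the 8 lists were merged where they overlapped or touched, with presence in a library set by at least 1 bp under a peak. Of the 816, 178 were present in 4 H2A libraries and 638 in 3. The assay was ATAC-seq, which reads open DNA through the cuts of the transposase Tn5, and the cells were HEK293T, a human embryonic kidney line with SV40 large T antigen. The E92K group was HEK293T with a lentivector for the histone mutant H2A(E92K), and the H2A group was HEK293T with a lentivector for H2A, per the genotype labels; the design text calls the cells transfected. Each group had 4 libraries and no treatment, and the labels do not say whether replicates came from separate cultures, whether the cells were a pool or a clone, or how much of their own H2A remained, so p-values reflect the spread among these libraries and no more. The converse regions, with a peak in at least 3 E92K and no H2A library, numbered 701 and are called E92K-leaning.

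The nucleosome wraps DNA around a core of histones, and its acidic patch is a negatively charged surface formed by H2A and H2B. Many chromatin proteins dock on that patch through an arginine, and E92K puts a positive lysine in place of a glutamate there. Tn5 enters DNA where nucleosomes are displaced, at promoters, enhancers and sites of CTCF, the zinc finger protein that marks insulators and anchors cohesin loops.

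The sequences of the most significant H2A-leaning regions are printed here with any matches to consensus sequences. Such a match shows letters and not binding, so the kind of site was not tested. The order of regions goes by −log10 p, taken as a percentile within each list, the lowest of which counts, and sequences are hg38, read 5′ to 3′ around the strongest summit. Capitals mark matches on either strand to consensus sequences searched around the region centres: the CTCF core, AP-1 (TGANTCA), TEAD (ACATTCC), the E-box (CAGCTG) and the GC box (GGGGCGGGG). Printed windows can run past the end of a region, and the TEAD match near HAPLN1 lies just outside it. First come the most significant regions with a peak in 4 H2A libraries, then the most significant with a peak in 3, which held no match, and then the most significant promoter region.
Upstream of CCDC179, chr11:22875920-22876219, plus strand: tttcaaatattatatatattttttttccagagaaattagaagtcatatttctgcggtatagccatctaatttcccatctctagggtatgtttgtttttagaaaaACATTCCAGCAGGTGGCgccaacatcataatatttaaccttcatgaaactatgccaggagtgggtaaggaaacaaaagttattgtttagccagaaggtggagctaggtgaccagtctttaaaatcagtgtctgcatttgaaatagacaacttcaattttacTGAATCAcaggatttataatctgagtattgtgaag
Downstream of HAPLN1, chr5:83608237-83608536, plus strand: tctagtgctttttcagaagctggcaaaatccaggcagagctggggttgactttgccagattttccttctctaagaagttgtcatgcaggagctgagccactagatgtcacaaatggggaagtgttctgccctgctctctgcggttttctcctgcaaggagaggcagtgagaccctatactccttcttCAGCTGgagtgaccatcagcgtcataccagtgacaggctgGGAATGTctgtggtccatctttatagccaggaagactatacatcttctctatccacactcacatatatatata
ERGIC1 intron, chr5:172939147-172939446, plus strand: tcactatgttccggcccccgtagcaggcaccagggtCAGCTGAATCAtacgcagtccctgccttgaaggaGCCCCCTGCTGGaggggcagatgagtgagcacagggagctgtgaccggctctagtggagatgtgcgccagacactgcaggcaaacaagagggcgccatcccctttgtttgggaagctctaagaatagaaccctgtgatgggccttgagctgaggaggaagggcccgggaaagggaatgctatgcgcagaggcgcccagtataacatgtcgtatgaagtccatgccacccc
Upstream of ZNRF4, chr19:5404131-5404330, plus strand: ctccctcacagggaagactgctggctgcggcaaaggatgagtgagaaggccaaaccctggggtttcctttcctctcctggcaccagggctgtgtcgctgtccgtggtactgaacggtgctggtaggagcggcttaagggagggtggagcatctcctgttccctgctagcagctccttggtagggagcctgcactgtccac
CACNG3 promoter, chr16:24255892-24256191, plus strand: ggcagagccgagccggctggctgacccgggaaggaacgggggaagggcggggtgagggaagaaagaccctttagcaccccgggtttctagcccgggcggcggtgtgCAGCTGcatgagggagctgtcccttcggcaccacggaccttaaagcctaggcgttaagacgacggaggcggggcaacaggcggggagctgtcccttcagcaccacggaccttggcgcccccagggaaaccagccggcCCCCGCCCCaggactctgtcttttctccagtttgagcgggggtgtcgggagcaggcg

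Near CCDC179 the TEAD match runs into the CTCF core, so the capitals form 1 block, and an AP-1 match follows further on. In the ERGIC1 intron an E-box and an AP-1 match overlap ahead of a CTCF core on the minus strand. The CACNG3 promoter window held an E-box and, on the minus strand, a GC box. The CTCF core was several times as frequent in H2A-leaning as in E92K-leaning regions, and windows of 60 bases with the core in capitals follow for the 6 most significant H2A-leaning regions that had one.
Upstream of CCDC179, chr11:22876005-22876064, plus strand: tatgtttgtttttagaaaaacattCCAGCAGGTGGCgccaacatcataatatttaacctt
Upstream of CDKN1C, chr11:2888528-2888587, plus strand: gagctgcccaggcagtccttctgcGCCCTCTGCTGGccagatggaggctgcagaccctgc
ERGIC1 intron, chr5:172939193-172939252, plus strand: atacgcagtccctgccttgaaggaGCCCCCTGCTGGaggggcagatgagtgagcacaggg
Upstream of RABL2A, chr2:113604117-113604176, plus strand: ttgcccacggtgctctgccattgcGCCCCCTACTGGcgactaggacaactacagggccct
TUB intron, chr11:8092806-8092865, plus strand: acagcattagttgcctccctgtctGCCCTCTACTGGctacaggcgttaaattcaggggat
IGHV4-34, chr14:106373541-106373600, plus strand: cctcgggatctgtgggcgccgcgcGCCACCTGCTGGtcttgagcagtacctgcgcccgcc
The core lay on the plus strand near CCDC179 and on the minus strand in the other 5.

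Depth bears on every count of weak peaks. The deposited fold and p-value of a summit follow from a fragment pileup and a background under a Poisson model, and the lowest background in a list serves as its relative depth. That background was 2.41, 2.68, 2.23 and 2.26 fragments per position in E92K replicates 1 to 4 and 2.71, 2.52, 2.53 and 2.93 in H2A replicates 1 to 4. The E92K mean was lower by 0.280 (E92K minus H2A −0.280, exact two-sided permutation test over 70 assignments, p = 0.114, where 0.0286 is the smallest p possible). Without E92K replicate 2 the difference was −0.374 (exact p = 0.0286). Lists held 55527 to 61850 peaks in E92K and 57439 to 62044 in H2A libraries (exact p = 0.429). Marker genes of cell types were read at promoters: PAX2, SIX2, SALL1, WT1 and EYA1, regulators of the kidney progenitor, had a promoter peak in all 8 libraries. So did 3 of 4 neuronal filament genes, NEFL, NEFM and INA, while NEFH had one in 1 H2A library. Of 10 blood, liver and endothelial genes 7 had none in any library, PTPRC and APOA1 had one in 1 E92K library each, and TTR had one in all 8. Over all 19609 coding genes 13341 (68.0%) had a promoter peak in all 8 libraries and 5025 (25.6%) in none. Open promoters of markers therefore do not by themselves identify the cells.

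H2A-leaning regions were 0.842% of all merged regions, and E92K-leaning regions were 0.724%. These shares describe the choice and carry no test. Fisher's exact test on presence, adjusted by Benjamini-Hochberg over 96872 regions, called 0 regions. With 4 libraries a group its smallest p is 0.0286, which cannot pass this adjustment unless most regions separate the groups, so the 0 says nothing about single regions. At an unadjusted p under 0.05 there were 313, which are the 178 and 135 regions with a peak in 4 libraries of 1 group and none of the other. A region with 3 against 0 has an exact p of 0.1429. The excess of H2A-leaning over E92K-leaning regions did not hold under the following settings, and the cause was not tested. With every list scaled to the shallowest library the counts were 629 H2A-leaning and 806 E92K-leaning. Equal numbers of peaks gave 645 and 718, and q-values of 1e-05 or less gave 532 and 550. The direction of the larger count thus turned under each of these.

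**Figure D1:**
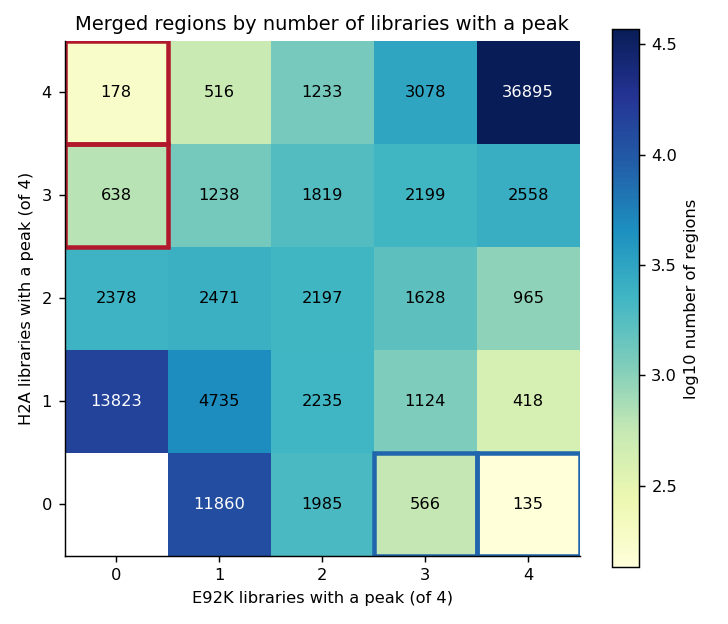
Number of merged regions by the number of E92K libraries (horizontal axis) and H2A libraries (vertical axis) with a peak, coloured by log10 number. Red boxes mark the 178 and 638 H2A-leaning regions and blue boxes the 566 and 135 E92K-leaning regions; most regions lie in 1 library or in all 8.

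Just outside the rule stood 2378 regions with a peak in 2 H2A and no E92K library, 1238 with 3 H2A and 1 E92K, and 516 with 4 H2A and 1 E92K. Median folds were 3.69 for regions in 3 H2A libraries and 3.78 for those in 4. The neighbouring classes had medians of 3.50 (2 H2A, no E92K), 3.81 (3 H2A, 1 E92K) and 4.12 (4 H2A, 1 E92K). Regions on both sides of the rule were thus close in strength. In the H2A libraries 657, 623, 662 and 684 of the 816 regions had a peak in replicates 1 to 4. Among the 638 regions in 3 libraries the missing one was replicate 1 in 159 cases, replicate 2 in 193, replicate 3 in 154 and replicate 4 in 132. Replicate 4, with the highest background, was missing least often and replicate 2, with the lowest, most often, but replicate 1 was missing more often than replicate 3 at a higher background.

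Most H2A-leaning peaks were weak. Fold and −log10 q are the authors' values per peak and only describe peaks within a list. Median folds of the H2A-leaning peaks were 3.6, 3.69, 3.68 and 3.56 in H2A replicates 1 to 4, against 5.11, 5.33, 5.38 and 5.26 over all peaks of those lists. Median pileups were 17, 16, 16 and 18 fragments, and median within-list percentiles 22.6, 20.6, 20.3 and 21.7. In 131 of the 816 regions (16.1%) every H2A peak had a q-value of 1e-05 or less. Absence from an E92K list means that no peak was called there. It does not show that the site was closed, since pileups outside peaks were not analysed here.

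The most significant H2A-leaning regions lay away from promoters and differed in height by several fold. The intergenic region 15.7 kb upstream of CCDC179, inside a long noncoding RNA gene (chr11:22875813-22876512), had folds of 11.6, 11.9, 11.4 and 9.48 in H2A replicates 1 to 4 and no E92K peak. Its pileups were 42, 41, 40 and 39 fragments, and the nearest region with an E92K peak was 45.6 kb away. The region 74.3 kb downstream of the start of HAPLN1 (chr5:83608040-83608462), a gene for a protein that ties hyaluronan to proteoglycans, had folds of 9.48, 8.24, 10.9 and 9.25. In the intron of ERGIC1 (chr5:172939158-172939655), a gene of transport between endoplasmic reticulum and Golgi, folds were lower, at 4.72, 5.30, 4.64 and 4.32, while pileups were higher, at 63, 64, 53 and 66. Fold is relative to local background, so it does not rank sites by fragments alone.

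Next was an intron of NGDN (chr14:23483059-23483696), the gene for the eIF4E-binding protein neuroguidin, with folds of 6.78, 7.33, 9.29 and 8.37. A region in MIR137HG (chr1:98048161-98048648), host of a brain-expressed microRNA, had folds of 5.51, 5.59, 5.38 and 7.36, the last standing apart from the other replicates. Upstream of RABL2A (chr2:113604019-113604626), a small GTPase gene, folds were 8.15, 8.89, 8.71 and 6.86, and 54.4% of the 32-base words in its centre occur elsewhere in the genome. The region 33.1 kb upstream of BCAS1 (chr20:54103483-54103989), a gene of early myelinating oligodendrocytes, had folds of 6.41, 8.29, 6.90 and 8.81. At IGHV4-34 (chr14:106373479-106373809), an immunoglobulin heavy chain variable segment, they were 9.14, 10.2, 8.49 and 6.42, with 34.8% repeated words. The remaining regions of the first 10 lay 977.6 kb upstream of SLC35B3 (chr6:9412907-9413377), with folds of 6.46 to 7.89, and in an exon of RPS19BP1 (chr22:39529065-39529469), with folds of 2.58 to 2.90. Within the H2A lists all 10 had percentiles of 49.1 to 78.2.

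A single missing library did not mean a weak peak. The region 51.2 kb upstream of ZNRF4 (chr19:5403966-5404472), which encodes a ubiquitin ligase of the endoplasmic reticulum, ranked first of all 816. Its folds were 8.48, 11.4 and 10.9 in H2A replicates 1, 2 and 4, with 40, 52 and 55 fragments, and replicate 3 and the 4 E92K lists had no peak. Upstream of CDKN1C (chr11:2888254-2888726), an imprinted gene for an inhibitor of cyclin-dependent kinases, folds were 4.37, 3.61 and 3.73 in H2A replicates 1, 3 and 4, with 92, 83 and 91 fragments. That region lay 2.7 kb from the CDKN1C start and 2.2 kb from a region open in all 8 libraries. In an intron of THRAP3 (chr1:36299920-36300265), a gene of splicing and transcription, folds were 6.99, 7.0 and 7.47 in replicates 1, 2 and 4. An intron of ADAMTS17 (chr15:100339096-100339479), a metalloproteinase gene, gave 3.27, 3.27 and 3.17 in replicates 1, 3 and 4. An intron of DOCK9 (chr13:98842784-98843134), an exchange factor for CDC42, gave 4.79, 6.64 and 5.00 in replicates 1, 2 and 4. Upstream of SLCO6A1 (chr5:102545208-102545493), an organic anion transporter gene, folds were 7.13, 9.65 and 7.99 in replicates 2, 3 and 4.

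**Figure D2:**
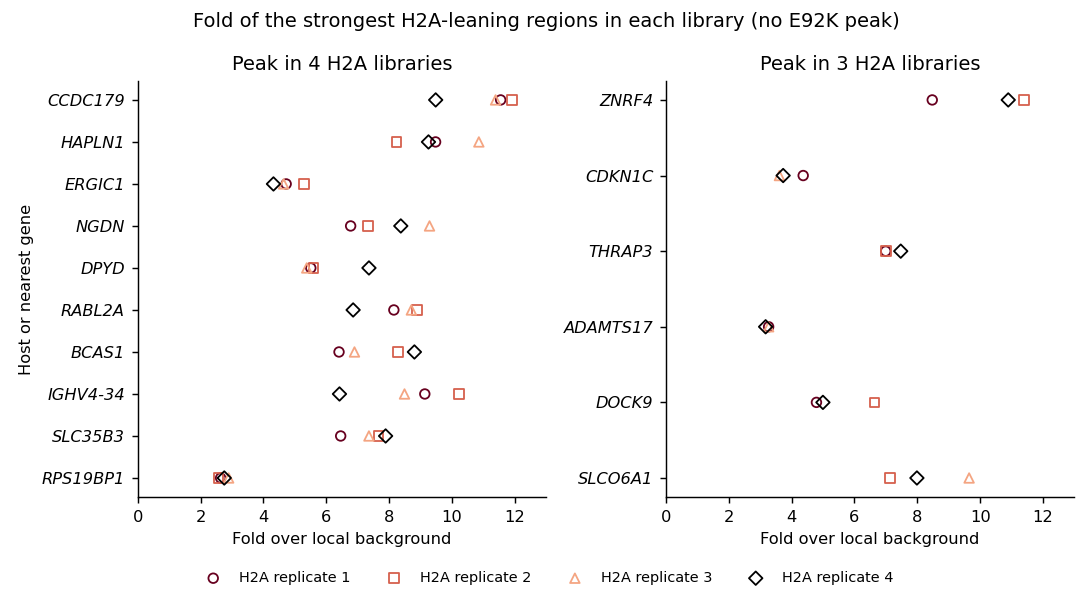
Fold over local background (horizontal axis) in each H2A library for the 10 most significant H2A-leaning regions with a peak in 4 libraries (left) and the 6 with a peak in 3 (right), by host or nearest gene; no E92K list has a peak at any of them. The DPYD row is the MIR137HG region, where replicate 4 lies apart at 7.36; other rows spread over both high and low folds.

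The H2A-leaning regions were mostly distal. By their midpoints 353 (43.3%) were intergenic, 404 (49.5%) lay in introns of coding genes, 27 (3.31%) in exons and 32 (3.92%) at coding promoters, taken as 1000 bp either side of a start site. Promoters made up 3.14% of E92K-leaning regions and 3.37% of 9265 other regions that were present in exactly 3 or 4 libraries and in both groups. Among regions in all 8 libraries they made up 34.3%. The median distance to a coding start site was 36.5 kb for H2A-leaning, 48.0 kb for E92K-leaning and 46.3 kb for the other regions in 3 or 4 libraries. Of the H2A-leaning regions 222 (27.2%) were over 100 kb from a coding start, against 32.7% and 31.6%. On chromosome 8 lay 5.39% of them, against 2.85% of E92K-leaning, 4.36% of the other regions and 4.01% of all regions. On chromosome 6 lay 6.37%, against 9.84%, 7.87% and 7.62%. Other chromosomes differed too, such as 4 (5.39% of H2A-leaning, 8.70% of E92K-leaning regions) and 22 (1.84% and 0.856%), and no chromosome was tested.

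H2A-leaning regions were also narrower and richer in GC than E92K-leaning regions and the other regions in 3 or 4 libraries. Their median width was 536.5 bp (quartiles 432.8 and 675 bp), against 601 bp for E92K-leaning regions and 578 bp for the other regions in 3 or 4 libraries. The same order held by number of libraries, at 608 against 690 bp in 4 libraries and 518.5 against 587 bp in 3. Median GC was 46.5%, against 43.4% and 44.7%, and 35.8% of H2A-leaning regions had at least 50% GC, against 20.7% and 27.7%. Over all regions median GC was 47.0%, and over those in all 8 libraries 52.8%, so H2A-leaning regions were not rich in GC for the series. GC of E92K-leaning regions stayed lower in each of the 11 alternatives run for it, with both sets chosen anew each time. Among these were depth scaling, the stricter q-value and leaving out each library. CpG-rich regions were few: 17 (2.08%) had a GC of at least 50% with an observed to expected CpG ratio of at least 0.6, against 2.28% and 2.68%, and 36.4% of regions in all 8 libraries. Width, GC and distance were compared as descriptions of the chosen sets, with no test.

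**Figure D3:**
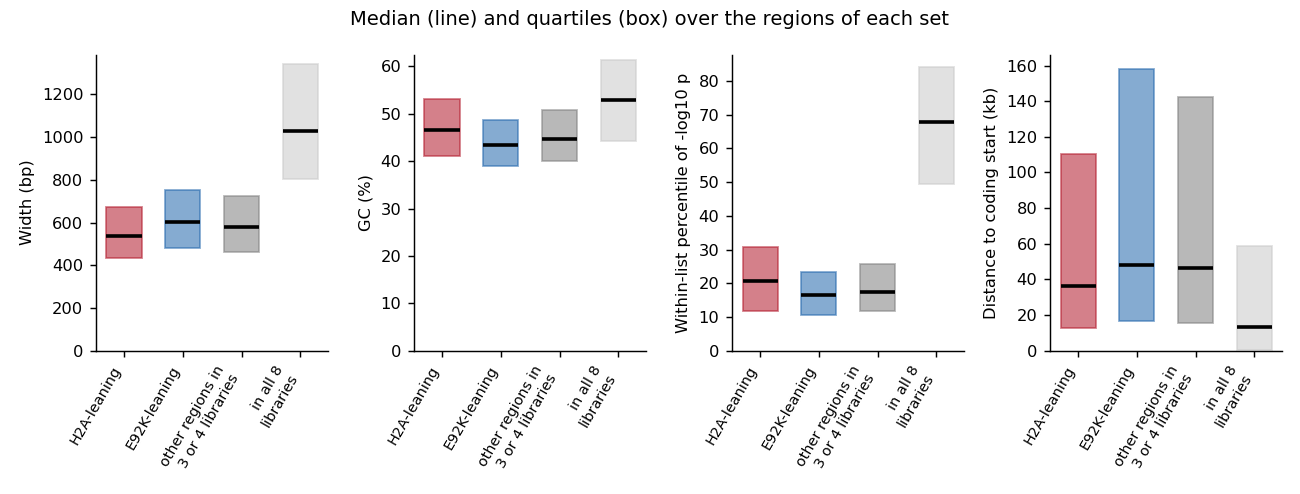
Median (line) and quartiles (box) of width, GC content, within-list percentile and distance to a coding start site, over 816 H2A-leaning, 701 E92K-leaning, 9265 other regions in 3 or 4 libraries and 36895 regions in all 8. H2A-leaning regions have medians of 536.5 bp, 46.5% GC, percentile 20.6 and 36.5 kb.

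At promoters the H2A-leaning peaks reached at most percentile 58.1 of a list among the 8 most significant regions. CACNG3 (chr16:24255787-24256278), an auxiliary subunit of AMPA glutamate receptors, had the most significant promoter region, with folds of 5.65, 5.68 and 7.89 in H2A replicates 1, 2 and 4. ADGRD1 (chr12:131070781-131071081), an adhesion G protein-coupled receptor, had folds of 5.23, 4.79, 5.10 and 6.26 in H2A replicates 1 to 4, and SLC4A5 (chr2:74333165-74333752), a sodium bicarbonate cotransporter, 4.20, 4.18, 3.84 and 4.56. For SLC5A5 (chr19:17871707-17872669), the sodium iodide symporter, folds were 2.67, 2.41, 3.01 and 2.31 at 53 to 65 fragments. Folds were 3.62, 3.13 and 2.96 at AKAP14 (chrX:119895838-119896256) in H2A replicates 2, 3 and 4, and 4.59, 3.30 and 4.90 at ADGRG1 (chr16:57628354-57628768) in replicates 1, 3 and 4, the gene of another adhesion receptor. TMEM225B (chr7:99598081-99599071) had folds of 3.64, 3.58, 3.6 and 4.33.

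The genes nearest to H2A-leaning regions were mostly open in both groups. The 816 regions had 756 distinct nearest coding genes, of which 574 (75.9%) had a promoter peak in all 8 libraries and 121 (16%) in none. For the other regions in 3 or 4 libraries these shares were 74.3% and 16.8%. Of the 756 genes 594, 598, 590 and 589 had a promoter peak in E92K replicates 1 to 4 and 608, 612, 605 and 614 in H2A replicates 1 to 4. These counts include the promoters of the chosen regions themselves. Long noncoding RNA genes overlapped 122 regions (15%), and 90 of those were intergenic with respect to coding genes. No such share was taken over all regions or the other sets, so this count does not set H2A-leaning regions apart.

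Few genes had several H2A-leaning regions. For 52 genes there were at least 2 and for 7 at least 3. PCDH9, a protocadherin gene on chromosome 13, had 4, with mean folds of 4.36, 3.6, 3.34 and 2.61. DACH1 and KLF12, transcription factor genes, and SPRY2, an inhibitor of receptor tyrosine kinase signalling, each had 3 and lie on the same chromosome, which holds 4.29% of H2A-leaning and 5.07% of all regions. CHRM3, a muscarinic acetylcholine receptor, CRIM1, a membrane protein that binds BMPs, and ENAH, an actin regulator, had 3 each. Only 10 regions had another H2A-leaning region within 25 kb, as 5 pairs. Near PSMA6, a proteasome subunit gene, folds were 4.96, 4.41 and 3.57 at one region, in H2A replicates 2, 3 and 4, and 3.15, 3.13 and 3.13 at its neighbour, in replicates 1, 3 and 4. The other pairs lay in CHRM3, ANO7, RBMX and ARID1B, a subunit gene of BAF chromatin remodelers, with mean folds of 2.17 to 3.86. By comparison 12 regions had an E92K-leaning region within 25 kb.

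Gene families near the regions were spread thinly. Solute carriers were nearest to 18 regions (2.21%, against 1.90% of all regions). The SLC6A19 region, near a neutral amino acid transporter of kidney and gut, had folds of 4.34, 4.32 and 4.0 in H2A replicates 1, 2 and 3. Near SLC1A3, a glial glutamate transporter, they were 6.46, 6.53 and 5.38, and near SLC2A13, a myo-inositol transporter, 2.54, 2.54 and 2.47, each in replicates 1, 2 and 3. Both of those regions held a CTCF core. Zinc finger genes named ZNF were nearest to 6 (0.735%, against 1.49%), and the most significant of these lay in an intron of ZNF83, nearest to the start of ZNF701, with folds of 5.38, 6.25 and 5.85 in replicates 1, 2 and 4. Protocadherins were nearest to 6 (0.735%, against 0.803%). GATA factors were nearest to 3 regions (0.368%, against 0.0939%): GATA4, with folds of 5.92, 4.83 and 5.09 in H2A replicates 1 to 3, GATA5 and GATA6. Collagens had 4 (0.490%, against 0.333%), among them COL11A1 with folds of 4.45, 4.04 and 4.64 in replicates 1 to 3. Potassium channels had 4 (0.490%, against 0.783%), SOX factors 3 (0.368%, against 0.291%) and FOX factors 3 (0.368%, against 0.510%). TBX, IRX, WNT, FGF and BMP genes had 1 each and AP-1, HOX, PAX, LHX and NFI genes 0, where each of these families is nearest to 0.0444% to 0.144% of all regions. Of the CTCF and cohesin genes SMC3 and RAD21 had 1 each (0.245% together, against 0.105%). Of 17 acidic patch binders CENPC, the centromere protein, had 1, with a mean fold of 3.32 (0.123%, against 0.103%), and E92K-leaning regions had 3.

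The widest H2A-leaning regions were weak. A 2026 bp region in an intron of RBMX (chrX:136866479-136868504), an RNA-binding protein gene, had folds of 2.58, 2.11 and 2.5 in H2A replicates 2, 3 and 4. An intronic region of 1612 bp in KIF7 (chr15:89640707-89642318), a kinesin of Hedgehog signalling, had 3.20, 2.57, 2.97 and 2.76 in replicates 1 to 4, and one of 1563 bp in RPL28 (chr19:55393939-55395501), a ribosomal protein gene, 2.14, 2.01, 1.94 and 1.95. Of all 816 regions 33 (4.04%) exceeded 1 kb, against 7.99% of E92K-leaning and 53.1% of regions in all 8 libraries.

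Sequence content differed between the sets. Consensus sequences were searched on both strands within 250 bp of each centre, and a match shows letters, not binding. The CTCF core was found in 62 of 816 H2A-leaning regions (7.60%), 12 of 701 E92K-leaning regions (1.71%), 408 of 9265 other regions in 3 or 4 libraries (4.40%) and 5.34% of all regions. Regions in all 8 libraries had the core in 8.02% of cases, close to the H2A-leaning share. It was in 11.2% of the H2A-leaning regions in 4 libraries and 6.58% of those in 3. Over the stricter q-value, equal peak numbers, depth scaling and each library left out, the share was 6.95% to 11.6% of H2A-leaning and 1.11% to 2.59% of E92K-leaning regions. Both sets were chosen anew under each of these settings. Within 100 bp of the centre the core was in 4.66% of the 816 H2A-leaning regions. Part of this pattern, for regions in 4 libraries, had been seen in an earlier analysis of the same data, so it is not independent support.

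Most other consensus sequences were closer in ratio. The CCAAT box (CCAATCA) was in 7.60% of H2A-leaning, 5.14% of E92K-leaning and 5.79% of all regions, and the T-box sequence (AGGTGTGA) in 4.04%, 2.57% and 2.71%. Several AT-rich sequences were scarcer in H2A-leaning than in E92K-leaning regions, while the GATA, homeobox and AP-1 shares of H2A-leaning regions were close to those of all regions. The forkhead sequence (TGTTTAC) was in 6.50% of H2A-leaning, 11.1% of E92K-leaning and 7.96% of all regions, the homeobox sequence (TAATTA) in 11.8%, 17.8% and 11.8%, and the GATA sequence (AGATAA) in 26.3%, 34.1% and 25.4%. AP-1 was in 15.7%, 21.1% and 15.9%. The E-box (26.8%, 27.2% and 26.3%), TEAD (8.58%, 7.28% and 7.01%), SOX (AACAATG; 8.33%, 9.84% and 6.92%), YY1 (AAGATGGC; 3.19%, 2.14% and 2.89%) and GC box (2.70%, 2.14% and 6.38%) differed by less than 3 percentage points between the H2A-leaning and E92K-leaning sets. NRF1 and the nuclear factor I palindrome were in 0 H2A-leaning regions. NRF1 was in 0 E92K-leaning and 0.322% of all regions, and the palindrome in 4 E92K-leaning (0.571%) and 0.169% of all regions.

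**Figure D4:**
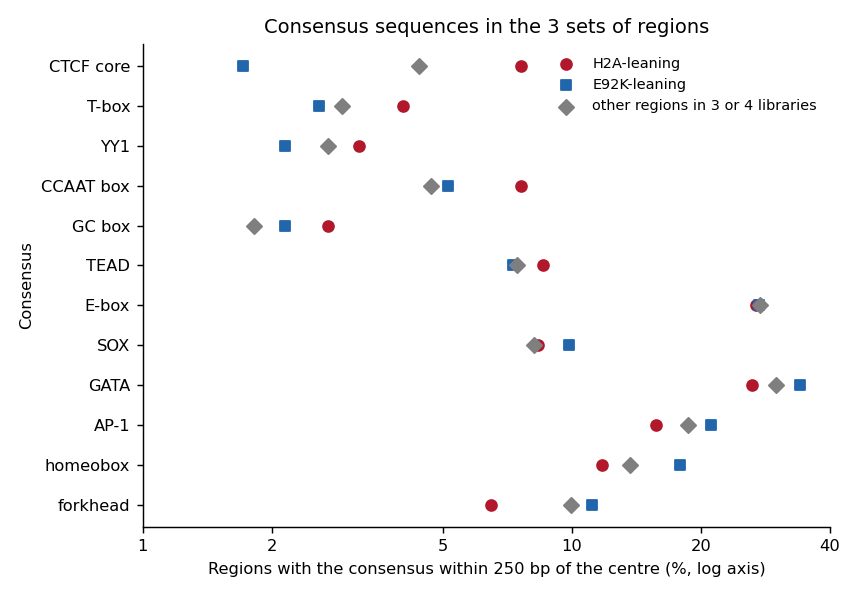
Share of H2A-leaning (red circles), E92K-leaning (blue squares) and other regions in 3 or 4 libraries (grey diamonds) with each consensus within 250 bp of the centre, on a log axis. The CTCF core stands at 7.60%, 1.71% and 4.40%; the forkhead sequence, at 6.50%, 11.1% and 9.96%, lies the other way round.

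Because GC differed, the shares were also taken within bands of GC content. Below 42% GC the CTCF core was in 26 of 231 H2A-leaning regions (11.3%), 1.75% of E92K-leaning and 4.63% of the other regions in 3 or 4 libraries. From 42 to 50% GC the shares were 4.44%, 0.741% and 3.52%, and at 50% or more 7.88%, 3.45% and 5.30%. The GATA sequence in the same bands was in 40.3%, 27.0% and 14.7% of H2A-leaning and 43.4%, 34.1% and 15.9% of E92K-leaning regions, and the homeobox sequence in 24.7%, 8.87% and 4.45% of H2A-leaning and 24.5%, 16.3% and 7.59% of E92K-leaning regions. Forkhead shares were 11.7% and 12.6% in the lowest band, 6.48% and 10.4% in the middle one and 2.40% and 9.66% in the highest. The CTCF core was thus more frequent in the H2A-leaning set within each band, while the homeobox sequence was at about the same share in both sets below 42% GC and scarcer in the H2A-leaning set in the other bands.

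A minority of H2A-leaning regions had peaks in the upper part of their lists by −log10 p. Such regions are called tall here, though the choice used neither fold nor width. Among them, the region 15.7 kb upstream of CCDC179 was 700 bp wide, and the one in an intron of ADAMTS17 had a mean fold of 3.24. In 22 of 816 (2.70%) the peak stood above the 50th percentile of every H2A list that held it, against 4 of 701 E92K-leaning regions (0.571%) and 91 of 9265 other regions in 3 or 4 libraries (0.982%). These 22 had a median width of 454.5 bp, a median fold of 7.25 and a median pileup of 39 fragments. The 91 other regions in 3 or 4 libraries were close to this, with medians of 484 bp, 7.60 and 35.5 fragments. The 4 E92K-leaning regions had medians of 508.5 bp, 6.38 and 49 fragments. Regions in all 8 libraries that met the same condition had medians of 1122 bp, 8.43 and 88.5 fragments. Of the 22 regions 14 were intergenic and 8 intronic, and 0 lay at promoters. The CTCF core was in 7 of the 22 (31.8%), against 11 of those 91 other regions (12.1%) and 7.92% of the 21528 in all 8 libraries. Among the 4 E92K-leaning regions 1 held it (25%). With both sets and the percentiles taken anew at q-values of 1e-05 or less, the counts were 4 H2A-leaning and 1 E92K-leaning. With depth scaled they were 15 and 4.

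Such measures were also taken in regions with a peak in exactly 1 library, which the rule did not use. These regions come from the same peak lists, and the 7 measures were chosen after the data were seen. The p-values here are therefore no independent test of the pattern in the chosen regions. Their adjustment covers these 7 measures and not the choice of them. Regions in 1 library numbered 2117 to 3982 per E92K library and 2807 to 4057 per H2A library. The share above the 50th percentile of their list was 0.25%, 0.276%, 0.371% and 0.189% in E92K replicates 1 to 4 and 0.736%, 0.712%, 0.821% and 0.912% in H2A replicates 1 to 4. Every E92K library was below every H2A library. The means were 0.272% ± 0.0758 in E92K and 0.795% ± 0.0907 in H2A libraries (SD, n = 4 each, exact two-sided permutation p = 0.0286, adjusted p = 0.0667 over 7 measures). The CTCF core was in 1.43%, 1.51%, 0.945% and 1.18% of these regions in E92K replicates 1 to 4 and 1.96%, 1.89%, 1.55% and 1.77% in H2A replicates 1 to 4, again without overlap (exact permutation p = 0.0286, adjusted p = 0.0667). The CCAAT box stood at 5.06% ± 0.507 in E92K and 5.90% ± 0.257 in H2A libraries (SD, n = 4 each, exact permutation p = 0.0286, adjusted p = 0.0667). The GATA sequence went the other way, at 30.6% ± 0.778 in E92K and 28.1% ± 1.6 in H2A libraries (SD, n = 4 each, exact permutation p = 0.0571, adjusted p = 0.0999). Median GC and the homeobox and forkhead sequences had exact permutation p-values of 0.143, 0.143 and 0.543. None of the 7 passed the adjustment. E92K libraries were below all H2A libraries in the share above the 50th percentile under each of 11 alternatives, and in the CTCF core under 9 of them, the exceptions being the stricter q-value and equal peak numbers, each with an exact permutation p of 0.0571. For the CCAAT box the separation was lost with the stricter q-value, equal peak numbers and depth scaling (exact permutation p = 0.0571, 0.114 and 0.0857). Depth also differed between the groups, as given above, and its part in the tall regions was not tested; with each list scaled to the shallowest library the shares were 0.265% in E92K and 0.729% in H2A libraries.

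**Figure D5:**
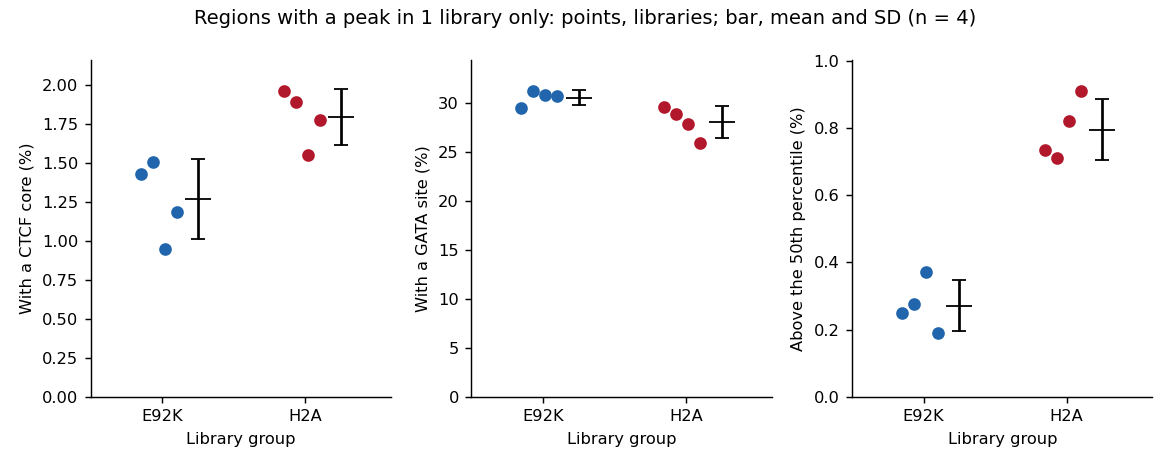
Share of regions with a peak in 1 library only that hold a CTCF core (left), hold a GATA sequence (middle) or lie above the 50th percentile of their list (right), per library, E92K left of H2A; bars are mean and SD (n = 4). E92K and H2A points do not overlap for the CTCF core and the 50th percentile; no measure passed adjustment over 7.

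H2A-leaning regions stood among accessible sites of both groups. The nearest region with a peak in all 8 libraries was at a median of 18.4 kb, against 17.8 kb for E92K-leaning and 20.5 kb for the other regions in 3 or 4 libraries, and the nearest region with an E92K peak was at 8438.5 bp. Within 10 kb of an H2A-leaning region a further peak was found for 358, 386, 359 and 348 of the 816 in E92K replicates 1 to 4 and for 369, 343, 358 and 363 in H2A replicates 1 to 4. Repeated sequence, read as 32-base words that occur elsewhere in the genome, was present in the centre of 25% of H2A-leaning, 20.5% of E92K-leaning and 23.8% of the other regions in 3 or 4 libraries. At least 50% of the words were repeated in 25 H2A-leaning regions (3.06%), against 2.85% and 3.01%, and how reads were assigned at such places is not given in the sources used here. Within 1 Mb of a chromosome end lay 20 H2A-leaning regions (2.45%), against 7 E92K-leaning regions (0.999%) and 1.88% of all regions.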

How the data were processed

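Peak lists of 8 ATAC-seq libraries, 1 deposited per library, were read with groups and replicate numbers from the sample titles. Per the series' design text, reads were aligned to hg38; no aligner, peak caller, Tn5 offset or duplicate handling is stated in the labels, and each can change widths and weak calls. The labels name genomic DNA while the extraction note speaks of RNA. Per the deposited files, the authors' score is a whole number per row, the fold is a ratio of summit pileup over background, and significance is held as −log10 of the p-value and of the q-value, with q of 0.01 or less. A peak was a distinct interval, represented by its most significant summit. Whole pileups and backgrounds were recovered for 100% of peaks within 0.001 of −log10 p.

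Regions were merged, placed by midpoint on GENCODE version 44 and read from hg38 (Python 3.11.15, pandas 2.3.3, scipy 1.17.1, pysam 0.24.0); the last peak end on all 23 chromosomes fits hg38. Words of 32 bases were counted over the 301 bp at each centre. Tests were Fisher's exact test per region and exact two-sided permutation tests over libraries, with Benjamini-Hochberg adjustment. With the replicate number as a block they were a paired exact sign test per region and sign-flip tests over libraries. The procedures were checked on simulated data. Members, gene lists and consensus sequences were chosen with earlier results of these data known. Named regions are, by lowest within-list percentile, the 10 highest in 4 H2A lists, the 6 highest in 3, the 8 highest at promoters, the 3 widest, pairs within 25 kb, the 6 highest with a CTCF core and up to 12 near listed genes; SMC3, RAD21, CENPC, GATA5, GATA6 and the genes with at least 3 regions were named after their values were seen, and 1 of the promoter regions is not reported here. Analyses of regions in 1 library, GC bands and tall regions were added after seeing the data. Replicate numbers did not pair libraries (same-number correlations −0.0092 to 0.0051).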

Additional observations from a re-analysis of the deposited data

Results flagged for a closer look

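Of 45 groups of 4 library values examined, 3 had 1 library standing apart from the rest by a gap test, and chance gives about 1 in 20. The H2A-leaning region in MIR137HG, nearest to DPYD, had a fold of 7.36 in H2A replicate 4, against 5.38 to 5.59 in the other 3. The TMEM225B promoter had a fold of 4.33 in H2A replicate 4, against 3.58 to 3.64. The ANO7 intron had a fold of 3.24 in H2A replicate 1, against 2.91 to 2.94.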

How the results depend on the processing

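The number of H2A-leaning regions, 816, became 532 with q-values of 1e-05 or less and 178 when 4 of 4 H2A libraries were required. E92K-leaning regions became 135 under the rule of 4 of 4. With 1 library left out, and all 3 remaining ones of its group required, the range was 311 to 1388 H2A-leaning and 227 to 1182 E92K-leaning regions. This follows from the rule, which is stricter for the group that loses a library and looser for the other. The excess of H2A-leaning over E92K-leaning regions, 115, was 43 under 4 of 4. It reversed to −18 with q-values of 1e-05 or less, −73 with equal peak numbers and −177 with depth scaled, and ranged from −871 to 1161 with a library left out; the cause was not tested. Merging peaks up to 100 bp apart (126) and requiring 25% cover (102) kept it within 1.5 times.

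Tests per region called 0 regions under each of 11 alternatives. For the replicate block this was a paired exact sign test on presence, and for the others Fisher's exact test. The 0 says nothing about stability, since the smallest p these designs allow does not pass the adjustment. The depth difference ranged from −0.374 to −0.195 with a library left out. With the replicate number as a block the depth difference was −0.280 (exact sign-flip p = 0.25) and the peak number difference −1299 (exact p = 0.625), where 16 sign patterns allow no p under 0.125. Among regions in 1 library at q-values of 1e-05 or less, 4 measures reached an adjusted p of 0.05: median GC (−1.32), GATA (4.10), forkhead (1.90) and the share above the 50th percentile (−0.308), all E92K minus H2A in percentage points. Of the descriptions, the promoter share was 3.34% to 6.62%, median GC 46.0% to 47.6%, median width 525 to 608 bp and median fold 3.67 to 4.77 over their alternatives. With pileups of about 16 fragments, a missed call and a closed site cannot be told apart.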

Other observations

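Tall regions in a single group were counted for any number of libraries, not only the chosen ones. Regions with peaks in E92K libraries only stood above the 50th percentile of every list that held them in 40 of 14546 cases (0.275%), and regions with peaks in H2A libraries only in 160 of 17017 (0.940%). Of 3078 regions with a peak in 3 E92K and 4 H2A libraries 200 were such cases. Of 2558 regions with a peak in 4 E92K and 3 H2A libraries 97 were. The 1233 regions in 2 E92K and 4 H2A libraries included 43, and the 965 in 4 E92K and 2 H2A libraries 10. These counts include the H2A-leaning and E92K-leaning regions, were chosen after seeing the data and carry no test.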
